A study of Mus musculus with 6 samples.

Results

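The 10 genes described here encode secreted growth factors of the transforming growth factor beta (Tgf-beta) superfamily and proteins that restrain or receive them. They are the ligands Tgfb1, Tgfb2, Tgfb3, Bmp4, Inhba and Mstn, the secreted binding proteins Fst and Fstl1, the receptor Acvr2b and the intracellular inhibitor Smad7. They were taken from a list of names, with no threshold on a measured value, and are 10 of the 17558 genes in the deposited expression table. The study asked what the pyruvate kinase isoforms Pkm1 and Pkm2 do during muscle cell differentiation. RNA sequencing was done on C2C12 cells, an immortalized mouse myoblast line that exits the cell cycle and fuses into myotubes when serum is lowered. Each of 3 groups had 2 libraries. The control group (shScr, genotype given as WT) stably carried a scrambled short hairpin RNA. The groups ShPkm1 and ShPkm2 stably carried a hairpin aimed at Pkm1 or at Pkm2, and their genotypes are given as knockdowns of these isoforms. All groups, the control included, had been kept for 48 h in differentiation medium with 2% horse serum and insulin, transferrin and selenium. How many hairpins or clones stand behind each group is not given in the sources used here. Nothing says that the libraries of a group came from separate cultures, so p-values measure only the spread between these libraries, which may be technical.

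Ligands of this superfamily are secreted dimers that bring type I and type II serine/threonine kinase receptors together on the cell surface. Tgf-betas and activins signal mainly through Smad2 and Smad3, bone morphogenetic proteins (Bmps) through Smad1, Smad5 and Smad9, and both branches share Smad4. In skeletal muscle, myostatin and activin A limit muscle mass through the receptors Acvr2a and Acvr2b, follistatin binds and neutralizes both, and Tgf-betas and Bmps are known to hold back myoblast differentiation in culture.

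Library totals ran from 18216896 to 19796036 estimated counts. The targeted gene was read first. The Pkm1 isoform stood at 546 and 589 TPM (a level per transcript length that sums to the same total in each library) in shScr, 243 and 218 in ShPkm1, and 254.1 and 254.2 in ShPkm2. The Pkm2 isoform stood at 1073 and 1517 TPM in shScr, 1278 and 1379 in ShPkm1, and 2699.7 and 2629.5 in ShPkm2. By edgeR on transcripts, the Pkm1 isoform was lower in ShPkm1 (log2 fold change -1.66, adjusted p = 0.00272) and in ShPkm2 (-1.58, adjusted p = 0.00124). For the Pkm2 isoform, ShPkm2 gave 0.63 (adjusted p = 0.0656), which is not a fall, so that name is used here only as a label, and every direction given for ShPkm2 is that of the libraries so labelled. The 10 myogenic markers summed to 26889 to 37921 TPM in shScr, 13753 to 14690 in ShPkm1 and 1078 to 1154 in ShPkm2, and none of them was at or under 3 counts in a group. In each hairpin group 9 of the 10 were called lower than in shScr. The exception was Myf5, an early myogenic factor, at 11.6 and 13.4 TPM in shScr, 20.8 and 18.2 in ShPkm1, and 59.4 and 54.2 in ShPkm2. By edgeR, Myf5 was higher in ShPkm2 (log2 fold change 1.74, adjusted p = 9.39e-09) and missed the threshold in ShPkm1 (0.25, adjusted p = 0.0588). Myod1, a master regulator of the muscle lineage, was lower by a log2 fold change of -0.90 in ShPkm1 and -2.22 in ShPkm2 (edgeR adjusted p = 8.09e-06 and 1.19e-09). Myog, which drives terminal differentiation, was lower by -0.94 and -5.35 (adjusted p = 3.19e-05 and 1.06e-11). The 6 fibroblast markers summed to 615 to 677 TPM in shScr, 4369 to 4501 in ShPkm1 and 361 to 405 in ShPkm2, with Thy1 at or under 3 counts in each group. Col1a1 and Col1a2 carried that sum, and all 4 tested fibroblast markers were higher in ShPkm1. In ShPkm2, Col1a1 was lower (-3.41), Col1a2 was not called (-0.25) and Pdgfra was higher (2.46, from 1.02 and 1.61 TPM in shScr to 10.2 and 9.47). Myf5, Pdgfra and the collagens are named for values already seen. The 5 osteoblast markers summed to 4.84 to 7.81, 15.7 to 18.9 and 15.7 to 16.7 TPM in the same order, with Ibsp at or under 3 counts throughout and Runx2 carrying most of the sum. The 5 adipocyte markers summed to 7.63 to 8.03, 21.5 to 22.7 and 19.8 to 23.1 TPM, with Adipoq and Plin1 at or under 3 counts throughout and Cebpa carrying most of the sum. The endothelial and epithelial sums stayed at or under 0.62 TPM, and that of 3 macrophage and blood markers at or under 4.26 TPM. These marker levels moved with the groups, and their part in the results below was not tested. In such bulk RNA, fewer cells of a type and less RNA per cell cannot be told apart.

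In ShPkm1 against shScr, the genes that rose were 3 ligands (Bmp4, Tgfb2 and Inhba), the binding protein Fstl1 and the inhibitor Smad7. Bmp4 was 10.3-fold higher and the other 4 were 2.07-fold to 2.92-fold higher. Thus 5 of the 9 testable genes were higher and 0 lower by edgeR's quasi-likelihood test at a Benjamini-Hochberg adjusted p under 0.05, where 63.1% of all tested genes were called, 31.8% as higher and 31.4% as lower. Of the other 4, Tgfb1, Tgfb3, Fst and Acvr2b, each missed the threshold. The 10th gene, Mstn, had too few counts to be tested.

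In ShPkm2 against shScr, Fst was 47.5-fold lower, Tgfb3 3.86-fold lower and Tgfb2 1.68-fold lower. Bmp4, Inhba, Fstl1, Acvr2b and Smad7 were 1.48-fold to 2.48-fold higher. This made 5 of 9 higher and 3 lower, beside 68.0% of all tested genes called, 33.9% as higher and 34.2% as lower. In the direct comparison of ShPkm2 with ShPkm1, Fst, Bmp4, Tgfb3, Tgfb2 and Fstl1 were lower and Acvr2b was higher. That is 1 of 9 higher and 5 lower, beside 53.0% of all tested genes called, 25.7% as higher and 27.3% as lower. With so large a share of all genes called, these counts alone do not set the 9 genes apart. The comparisons of the hairpin groups with shScr share the same control libraries, so their values are given side by side. Values per library are given below as TMM CPM, the counts of a gene divided by the library's effective size in units of 1000000 counts, with effective sizes from edgeR's TMM scaling (a trimmed mean of log ratios between libraries).

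**Figure D1:**
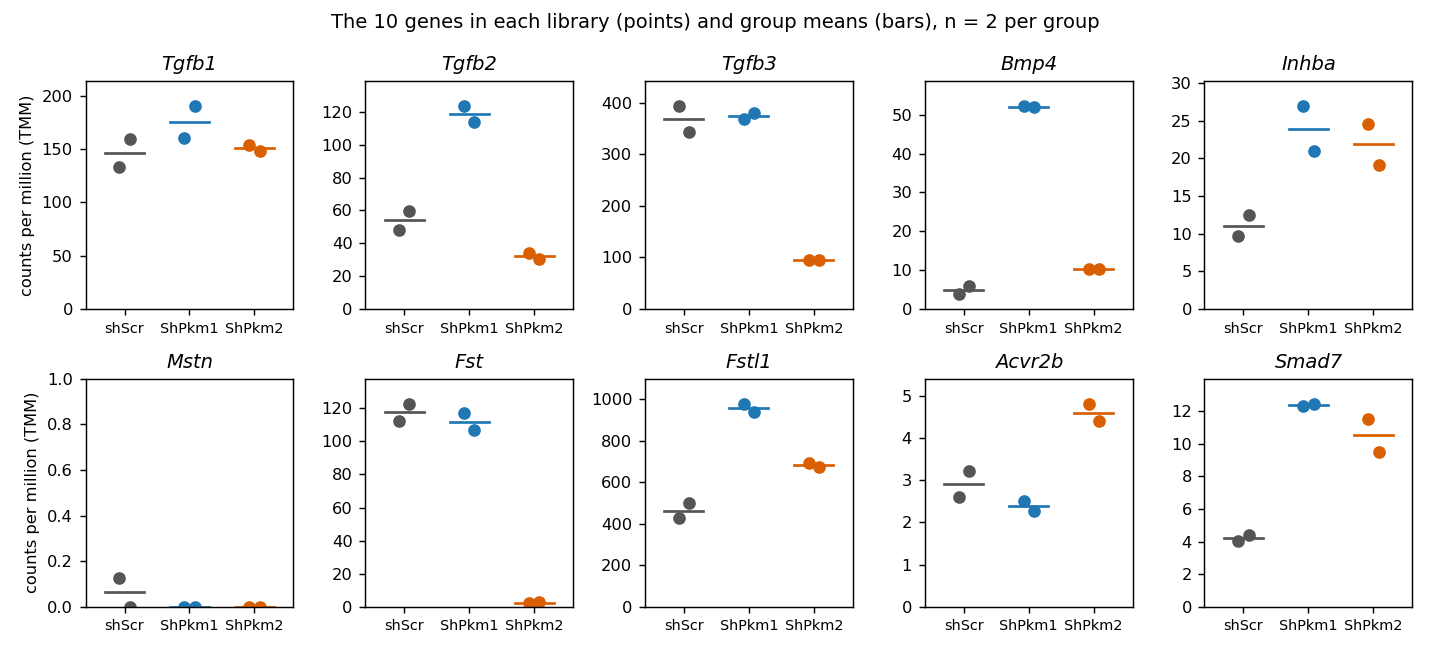
Each panel shows 1 gene in the 6 libraries, in TMM CPM (vertical axis, starting at 0), with points for libraries and short bars for the means of the 2 libraries of each group. Bmp4 stands near 52 in both ShPkm1 libraries, Fst at 2.26 and 2.67 in the libraries labelled ShPkm2, and Mstn near 0 in all 6.

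Tgfb1, the most widely studied Tgf-beta and an inducer of matrix genes (chr7:25687002-25705077, GRCm38.p6), varied least of the 5 tested ligands, from its lowest to its highest library. It measured 133 and 159.8 in shScr, 160.4 and 190.1 in ShPkm1, and 154 and 148 in ShPkm2. The shScr and ShPkm1 values touched without overlapping, and the ShPkm2 values lay inside the shScr range. The log2 fold change was 0.26 in ShPkm1 (95% interval 0.01 to 0.51, adjusted p = 0.0674 by edgeR's quasi-likelihood test) and 0.04 in ShPkm2 (interval -0.21 to 0.30, adjusted p = 0.755). The first value depends on single libraries: it was 0.40 without shScr replicate 2 and 0.39 without ShPkm1 replicate 1. Over 15 alternatives it ran from 0.13 to 0.65 and passed the threshold in 5. With library totals in place of TMM, both comparisons passed the threshold, at 0.45 (adjusted p = 0.00753) and 0.36 (adjusted p = 0.0203). Limma on log2(TPM + 1) gave 0.65 (adjusted p = 0.00325) and 0.50 (adjusted p = 0.0123). Library totals also moved the median of all genes up by 0.19 and 0.32 on the log2 scale. Between the hairpin groups the difference was -0.22 (interval -0.47 to 0.03, adjusted p = 0.135 by edgeR).

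Tgfb2, a Tgf-beta with known roles in embryonic tissues and muscle connective tissue (chr1:186622787-186709697), split the hairpin groups. Its levels were 48.4 and 59.9 TMM CPM in shScr, 123 and 114 in ShPkm1, and 33.8 and 30.8 in ShPkm2. No pair of groups overlapped, with ShPkm1 highest and ShPkm2 lowest. On the log2 scale the fold change was 1.13 ± 0.12 (SE) in ShPkm1 (adjusted p = 2.51e-06) and -0.75 ± 0.12 in ShPkm2 (adjusted p = 9.17e-05). The direct difference between the hairpin groups was -1.88 ± 0.12, or 3.67-fold lower in ShPkm2 (adjusted p = 2.67e-08). The lower value in ShPkm2 is the weakest of these: limma on log2(TPM + 1) gave -0.27 with an adjusted p of 0.151.

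Tgfb3, a Tgf-beta known from palate and tendon development (chr12:86056743-86079041), was lower in the libraries labelled ShPkm2 than in either other group. It measured 393 and 342 TMM CPM in shScr, 368 and 380.4 in ShPkm1, and 95.65 and 94.8 in ShPkm2. The shScr and ShPkm1 libraries overlapped, while both ShPkm2 libraries lay far below the rest. edgeR gave a log2 fold change of 0.03 in ShPkm1 (interval -0.20 to 0.25, adjusted p = 0.838) and -1.95 ± 0.11 in ShPkm2 (adjusted p = 3.59e-09). The direct difference was -1.97 (adjusted p = 6.28e-09), so Tgfb3 was 3.93-fold lower with the hairpin labelled Pkm2 than with the one aimed at Pkm1. The ShPkm1 value depends on the method: limma on log2(TPM + 1) gave 0.42 (adjusted p = 0.0095), with TPM of 149.6 and 152 in shScr and 199.6 and 204 in ShPkm1. Without shScr replicate 2 it was -0.07 (adjusted p = 0.584).

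Bmp4, a Bmp that promotes bone and fat fates and expands muscle progenitors (chr14:46383525-46390669), had the largest rise of the 10 genes in ShPkm1. Its 6 libraries held 3.99 and 6.045 TMM CPM in shScr, 52.1 and 52.0 in ShPkm1, and 10.4 and 10.3 in ShPkm2. The 3 groups were fully separated, and the libraries within each hairpin group lay within 1 TMM CPM of each other. Relative to shScr, the log2 fold change was 3.36 ± 0.15 in ShPkm1 (interval 3.03 to 3.70, adjusted p = 1.70e-09) and 1.03 ± 0.17 in ShPkm2 (adjusted p = 0.000116). The direct difference was -2.33, or 5.04-fold lower in ShPkm2 than in ShPkm1 (adjusted p = 1.40e-08). Of 6 Bmp4 transcripts in the table, the predicted RefSeq transcript XM_011244935.2 received most of the level, 80.0% to 95.6% of Bmp4 TPM across libraries.

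Inhba encodes the beta A subunit of activins, which pairs with itself to form activin A, an inhibitor of muscle growth (chr13:16004256-16031609). It measured 9.63 and 12.5 TMM CPM in shScr, 26.9 and 20.9 in ShPkm1, and 24.5 and 19.2 in ShPkm2. Both hairpin groups lay above shScr and overlapped each other. The log2 fold change was 1.11 ± 0.17 in ShPkm1 (adjusted p = 9.75e-05) and 0.98 ± 0.17 in ShPkm2 (adjusted p = 0.000207). The direct difference was -0.13 (interval -0.47 to 0.21, adjusted p = 0.517). It became 0.05 without ShPkm1 replicate 1, 0.03 without ShPkm2 replicate 2 and 0 with library totals.

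Mstn encodes myostatin, a muscle-made ligand that limits muscle size (chr1:53061640-53068079). It had 2 estimated counts in shScr replicate 1 and 0 in the other 5 libraries. A count of 0 allows up to 3 counts, so at this depth no difference between groups was detectable and no fold change is given.

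Promoter sequence of the ligands that rose in ShPkm1 is printed because Bmp4, Tgfb2 and Inhba moved together there. The sequences come from a promoter table made from RefSeq (GRCm38.p6) and are the 250 bases before the 1 start point that the table uses for a gene. Windows of 7 of the 10 genes were used here: Mstn, Tgfb2, Tgfb1, Acvr2b, Inhba, Bmp4 and Fstl1. Those of Tgfb2, Inhba and Acvr2b lie inside the gene spans printed here, which cover all annotated transcripts of a gene, so other start points lie further upstream. Capitals mark matches to CANNTG, the E-box read by Myod1, Myog and many other basic helix-loop-helix factors, and to TATAAA, the TATA box.
Bmp4, chr14:46390670-46390919, minus strand: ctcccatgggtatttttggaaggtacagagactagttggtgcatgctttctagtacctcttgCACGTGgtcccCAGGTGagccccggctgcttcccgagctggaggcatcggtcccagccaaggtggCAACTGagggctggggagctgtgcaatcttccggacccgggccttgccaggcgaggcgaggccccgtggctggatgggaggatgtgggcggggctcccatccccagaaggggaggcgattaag
Tgfb2, chr1:186705990-186706239, minus strand: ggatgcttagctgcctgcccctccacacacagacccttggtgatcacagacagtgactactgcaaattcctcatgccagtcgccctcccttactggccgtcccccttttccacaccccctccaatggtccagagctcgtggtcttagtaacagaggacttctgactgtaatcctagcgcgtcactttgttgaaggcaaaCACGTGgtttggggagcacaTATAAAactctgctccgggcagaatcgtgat
Inhba, chr13:16011601-16011850, plus strand: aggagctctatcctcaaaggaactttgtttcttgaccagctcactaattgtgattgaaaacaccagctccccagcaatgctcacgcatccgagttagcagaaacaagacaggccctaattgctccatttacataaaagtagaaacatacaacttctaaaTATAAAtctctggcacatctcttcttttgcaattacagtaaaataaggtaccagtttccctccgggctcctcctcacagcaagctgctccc
Both strands were searched, and no match to one motif overlapped a match to the other. The Bmp4 window held 3 E-boxes and no TATA box. The Tgfb2 window held 1 E-box at -51 and a TATA box at -31 from the table's start point, and the Inhba window held a TATA box at -91 and no E-box. In all, 3 of the 7 windows (Mstn, Tgfb2 and Bmp4) held an E-box, against 66.2% of 32851 promoters of the same length, and 12.4% of those promoters held TATAAA. The Smad-binding letters GTCTG occurred in the windows of Mstn, Tgfb2 and Acvr2b, against 42.2% of all promoters. A match is only a match of letters, and the start of the predicted Bmp4 transcript was not used here.

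Fst encodes follistatin, which binds activins and myostatin and keeps them from their receptors (chr13:114452262-114458989, minus strand). The gene measured 112 and 122.5 TMM CPM in shScr, 117 and 107 in ShPkm1, and 2.26 and 2.67 in ShPkm2. The shScr and ShPkm1 libraries overlapped, and both ShPkm2 libraries were far below all 4. On the log2 scale the fold change was -0.07 in ShPkm1 (interval -0.29 to 0.14, adjusted p = 0.548) and -5.57 ± 0.14 in ShPkm2 (interval -5.88 to -5.27, adjusted p = 4.88e-12). The direct difference between the hairpin groups was -5.50, or 45.2-fold lower in ShPkm2 (adjusted p = 1.42e-11). Limma on log2(TPM + 1) gave -4.49 against shScr and -4.81 against ShPkm1. With library totals in place of TMM, the small ShPkm1 value became 0.12, and limma on log2(TPM + 1) gave 0.32 (adjusted p = 0.068), both without a call. In TPM the ShPkm1 libraries (72.1 and 83.2) lay above those of shScr (56.0 and 68.6). Fst fell in the same libraries in which the summed myogenic markers were lowest, and that relation was not tested.

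Follistatin is made in forms that differ at the carboxyl end, so the ends of the coding sequence are printed for the transcripts in the table. The form with the acidic tail is known as the circulating one, and the form without it binds heparan sulphates on cell surfaces. The sequences come from the GENCODE M21 transcripts matched to the RefSeq names (GRCm38, chromosome 13, minus strand). Lower case gives the last 30 coding bases of exon 5, and capitals the part of exon 6 up to the end of the stop codon.
NM_001301373.1, 344 residues: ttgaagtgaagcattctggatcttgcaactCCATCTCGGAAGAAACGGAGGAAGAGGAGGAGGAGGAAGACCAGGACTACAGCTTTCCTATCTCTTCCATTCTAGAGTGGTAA
NM_001301375.1, 317 residues: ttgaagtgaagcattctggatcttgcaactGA
The capitals show that the first transcript codes for the acidic tail, rich in GAG and GAA codons, and that the second stops at once. The other transcript, NM_008046.3 (343 residues), ends like the first but starts exon 5 a codon later. The next pair of lines gives 15 bases before that junction in lower case and 15 bases of exon 5 in capitals, to show how small the difference is.
NM_001301373.1, exon 5 from 114454510: agggaaagtgtatcaAAGCAAAGTCCTGTG
NM_008046.3, exon 5 from 114454507: agggaaagtgtatcaCAAAGTCCTGTGAAG

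The long-tailed NM_001301373.1 was the main Fst transcript in the controls and was at or near 0 in the libraries labelled ShPkm2. Its level was 33.1 and 38.9 TPM in shScr, 39.6 and 44.2 in ShPkm1, and 0 and 0 in ShPkm2, where the table lists 0.02 and 0 estimated counts. It was called lower in ShPkm2 than in shScr (adjusted p = 0.0009 by edgeR over 33433 transcripts, of which 17.2% were called) and than in ShPkm1 (adjusted p = 0.00144, with 7.91% called). No fold is given for it, since reads counted for NM_008046.3 in ShPkm2 (35.4 and 43.1 estimated counts) could in part be its own. It made up 59.1% and 56.7% of Fst TPM in shScr.

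The short-tailed NM_001301375.1 measured 16.2 and 22.9 TPM in shScr, 26.5 and 19.9 in ShPkm1, and 0.41 and 0.40 in ShPkm2, a log2 fold change of -5.96 in ShPkm2 (adjusted p = 0.000915). NM_008046.3 measured 6.74 and 6.85 TPM in shScr, 17.0 and 8.08 in ShPkm1, and 1.29 and 1.51 in ShPkm2. It held 75.9% and 79.1% of what Fst signal remained in ShPkm2. Its log2 fold change there was -2.71 (adjusted p = 0.0162). Without either shScr library or either ShPkm2 library it lay between -2.88 and -2.55, but the call was lost. None of the 3 transcripts was called in ShPkm1 against shScr, where 10.8% of transcripts were called (adjusted p = 0.609, 0.816 and 0.478). The transcripts share most of their coding sequence, so each level depends on the split of shared reads made by the authors' counting program, and the change of share was not tested.

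**Figure D2:**
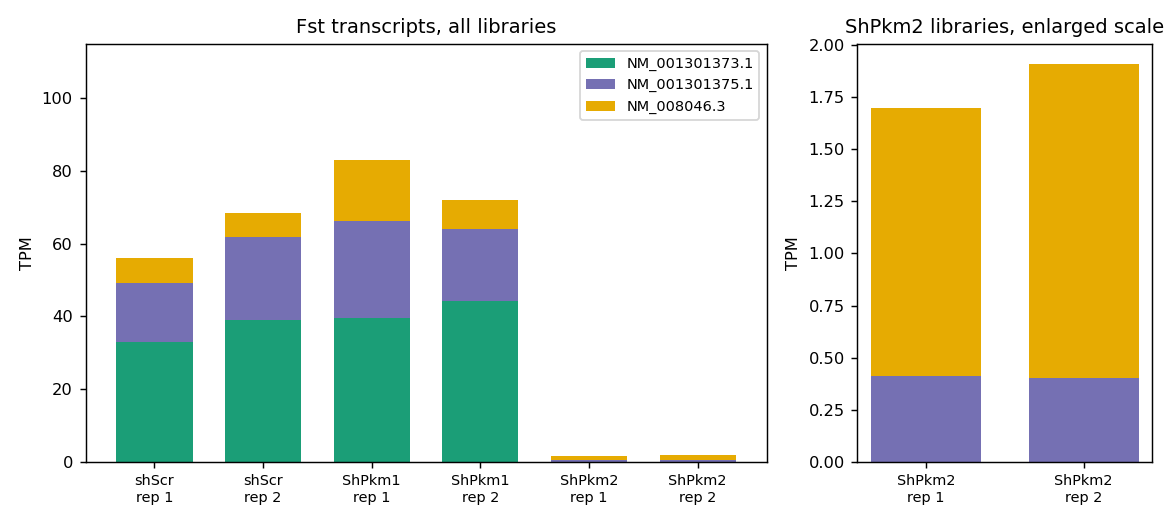
Stacked bars show the TPM of the 3 Fst transcripts in each library (left, axis from 0), and the libraries labelled ShPkm2 again on an enlarged axis (right). The gene sums to 56.0 and 68.6 TPM in shScr but 1.70 and 1.91 in ShPkm2, where NM_001301373.1 is not visible.

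Fstl1 encodes a secreted glycoprotein of the follistatin family that binds Bmp4 and other ligands and is made by muscle as well as connective tissue cells (chr16:37777055-37836516). It measured 427 and 498 TMM CPM in shScr, 975 and 939 in ShPkm1, and 693 and 672 in ShPkm2. The 3 groups were separated, with ShPkm1 highest and ShPkm2 between the others. edgeR gave a log2 fold change of 1.05 ± 0.12 in ShPkm1 (2.07-fold higher, adjusted p = 4.91e-06) and 0.56 ± 0.11 in ShPkm2 (1.48-fold higher, adjusted p = 0.000697). The direct difference was -0.49 (1.40-fold lower in ShPkm2, adjusted p = 0.00277). Limma on log2(TPM + 0.1) gave -0.42 for it, with an adjusted p of 0.0743. Fst and Fstl1, both binding proteins, thus had opposite directions in the libraries labelled ShPkm2.

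Acvr2b encodes a type II receptor for myostatin and activins (chr9:119401583-119442148) and had the lowest TPM of the 9 tested genes in each group. It measured 2.60 and 3.22 TMM CPM in shScr, 2.502 and 2.275 in ShPkm1, and 4.80 and 4.39 in ShPkm2. Both ShPkm2 libraries lay above the other 4. Relative to shScr, the log2 fold change was -0.29 in ShPkm1 (interval -0.81 to 0.24, adjusted p = 0.314) and 0.65 ± 0.22 in ShPkm2 (adjusted p = 0.0195). The call in ShPkm2 was lost under several settings, with values of 0.51 without shScr replicate 1 (adjusted p = 0.0796), 0.59 without ShPkm2 replicate 1 (0.117), 0.72 without ShPkm2 replicate 2 (0.0547) and 0.65 in DESeq2 (0.125). The direct difference, 0.94 or 1.92-fold higher in ShPkm2 than in ShPkm1, had an adjusted p of 0.00327. Limma on log2(TPM + 1), which understates changes of low genes, gave 0.33 for it (adjusted p = 0.0391).

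Smad7 encodes an inhibitory Smad that blocks the activated receptors and is itself induced by Tgf-beta and Bmp signals. It measured 4.06 and 4.41 TMM CPM in shScr, 12.35 and 12.4 in ShPkm1, and 11.5 and 9.495 in ShPkm2. Both hairpin groups were well above shScr, and ShPkm1 lay just above ShPkm2. The log2 fold change was 1.55 ± 0.17 in ShPkm1 (2.92-fold higher, adjusted p = 4.38e-06) and 1.31 ± 0.17 in ShPkm2 (2.48-fold higher, adjusted p = 1.38e-05). The direct difference of -0.24 missed the threshold (adjusted p = 0.193).

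**Figure D3:**
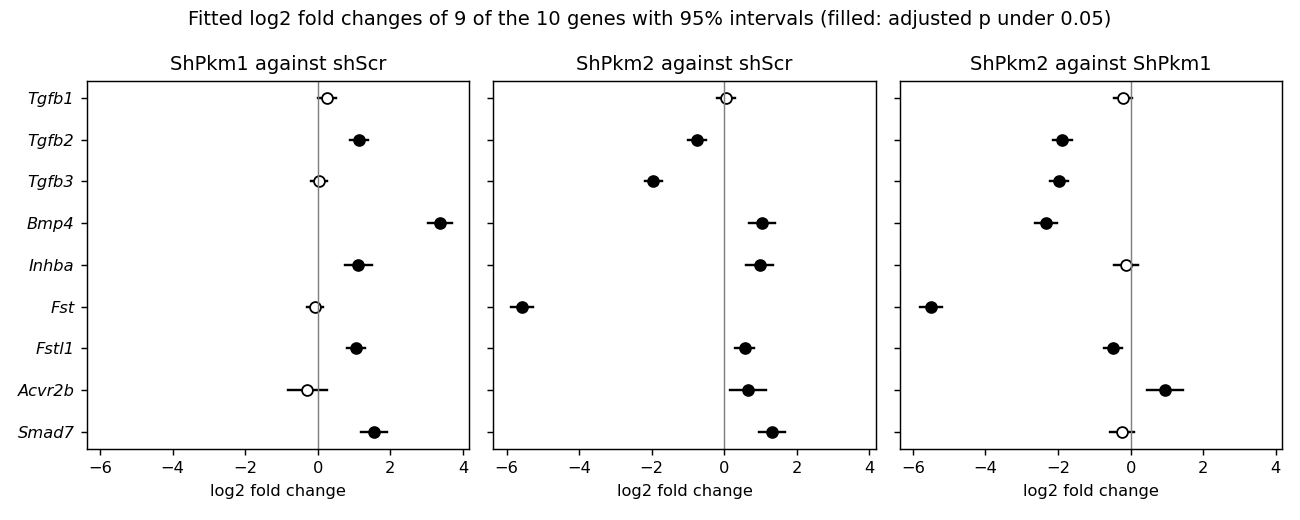
Points give the log2 fold change of each tested gene from edgeR and lines its 95% interval, in 3 panels for ShPkm1 against shScr, ShPkm2 against shScr and ShPkm2 against ShPkm1, with filled points for an adjusted p under 0.05. Fst lies at -5.57 and -5.50 in the panels that involve ShPkm2 and at -0.07 in the first, while Bmp4 lies at 3.36 in the first.

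Levels between genes were compared per length, in TPM. In shScr the order was Fstl1 at 179 ± 34 (SD, n = 2), Tgfb3 at 151 ± 2, Tgfb1 at 95.6 ± 20.6, Fst at 62.3 ± 8.9 and Tgfb2 at 15.4 ± 3.6. Inhba at 7.27 ± 2.23, Bmp4 at 4.26 ± 1.57, Smad7 at 1.44 ± 0.35 and Acvr2b at 0.395 ± 0.064 followed, and Mstn came last at 0.03. Neighbours in this order did not overlap between libraries. In ShPkm1, Bmp4 at 56.3 ± 2.1 TPM stood above Tgfb2 at 43.8 ± 4.1, whereas in shScr it stood below both Tgfb2 and Inhba. In ShPkm2, Fst dropped from 4th place to 8th, at 1.81 ± 0.15 TPM, below Smad7 at 4.88 ± 0.80. Tgfb1 at 134 ± 8 TPM stood above Tgfb3 at 53.7 ± 2.3 there, the reverse of the order in shScr. The pair Tgfb2 at 12.5 ± 1.3 and Bmp4 at 11.8 ± 0.5 overlapped in ShPkm2 and could not be ordered.

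**Figure D4:**
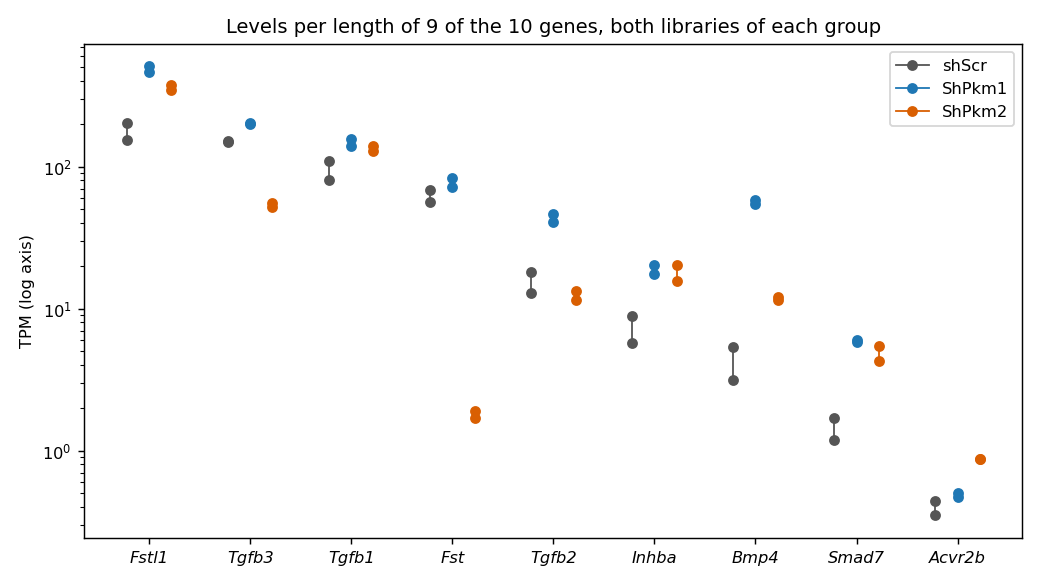
Points give the TPM (log axis) of 9 genes in both libraries of each group, joined by a line, with genes ordered by their shScr level and Mstn left out. Fst is near 62 TPM in shScr and near 2 in ShPkm2, and Bmp4 runs from 4.26 in shScr to 56.3 in ShPkm1.

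Ratios within a library do not depend on scaling between libraries. Fst RNA over the summed RNA of Mstn and Inhba was 9.74 and 7.76 in shScr, 4.12 and 4.13 in ShPkm1, and 0.0840 and 0.122 in ShPkm2. Fst RNA thus exceeded that of Mstn plus Inhba in shScr and ShPkm1 and was below it in ShPkm2. Mstn was at or near 0, so this ratio is in effect Fst over Inhba. The listed ligands Inhbb and Gdf11 were left out of the sum. In shScr, Inhbb stood at 11.04 and 23.51 TPM and Gdf11 at 21.73 and 23.57, above Inhba at 5.69 and 8.84. The excess of Fst and the lower ratio in ShPkm1 are thus shown for Mstn plus Inhba only. A wider sum was not tested. Tgfb2 over Tgfb1 was 0.159 and 0.163 in shScr, 0.334 and 0.260 in ShPkm1, and 0.0955 and 0.0898 in ShPkm2. Tgfb3 over Tgfb1 was 1.88 and 1.36 in shScr, 1.46 and 1.27 in ShPkm1, and 0.395 and 0.406 in ShPkm2. Both isoform ratios were lowest in ShPkm2. With 2 libraries against 2, a two-sided permutation test cannot give a p under 0.333, so the ratios carry no test.

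The surrounding pathway was read from 7 lists with 87 genes, of which 70 were tested. In ShPkm1 against shScr, 43 were higher and 11 lower, with a median log2 fold change of 0.58 against 0 over all tested genes, of which 31.8% were higher and 31.4% lower. In ShPkm2 against shScr, 31 were higher and 21 lower (median 0.16 against 0.01), beside 33.9% and 34.2% of all tested genes. In the direct comparison, 8 were higher and 35 lower in ShPkm2 (median -0.35 against 0), beside 25.7% and 27.3%. The counts for each list below stand beside these same shares, and calls in either direction were common in all genes (63.1%, 68.0% and 53.0%). Skil, Pmepa1, Smad6 and Smad9 each stand in 2 lists. The lists were chosen with earlier results of these data known, so their counts and medians are descriptive only.

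None of the 5 tested ligands outside the 10 genes, of 13 listed, was called higher by edgeR in any comparison. Of these, 3 were lower in ShPkm1 (median -0.57), 4 in ShPkm2 (median -1.51) and 2 in the direct comparison (median -1.29, or -0.55 with fold bounds used for genes at the floor). Inha and Gdf15 were lower in ShPkm2 than in ShPkm1 by -1.29 and -1.63. Inha, the alpha subunit of inhibins, which oppose activins, was lower by -1.09 in ShPkm1 and -2.38 in ShPkm2 on the log2 scale. The ShPkm1 call was lost in limma on log2(TPM + 0.1), at -0.63 (adjusted p = 0.0798). Gdf15, a stress-induced ligand, fell from 25.04 and 22.3 TMM CPM in shScr to 7.44 and 9.16 in ShPkm2 (log2 fold change -1.51, adjusted p = 5.72e-06), while it missed the threshold in ShPkm1 (0.12). Gdf11, a close relative of myostatin, was lower by -0.57 in ShPkm1. Limma on TPM gave -0.18 for it, with an adjusted p of 0.237 or 0.234 by pseudocount. In ShPkm2 its edgeR value was -0.34, but in TPM its libraries there (25.7 and 23.4) overlapped those of shScr (21.7 and 23.6).

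Of 11 tested genes for latency and activation of Tgf-betas, 8 were higher and 1 lower in ShPkm1 (median 0.57), 4 higher and 2 lower in ShPkm2 (median -0.02), and 1 higher and 7 lower in the direct comparison (median -0.68). Ltbp2, a microfibril protein of the latent Tgf-beta binding family, rose by 2.55 and 2.49 in ShPkm1 and ShPkm2. Thbs1, a thrombospondin that activates latent Tgf-beta, rose by 1.62 in ShPkm1 and had a value of -0.02 in ShPkm2 that missed the threshold. Itgb6, an integrin subunit that releases active Tgf-beta, went from 13.6 and 11.5 TMM CPM in shScr to 4.68 and 6.07 in ShPkm1 and 1.27 and 0.954 in ShPkm2. Lrrc32, which tethers latent Tgf-beta to the cell surface, rose by 1.31 in ShPkm1 and was lower in ShPkm2 than in shScr (-1.92) and than in ShPkm1 (-3.23). Itgav, the integrin partner of Itgb6, rose by 1.16 in ShPkm1 and 1.07 in ShPkm2.

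Of 11 tested secreted antagonists other than Fst and Fstl1, 8 were higher and 2 lower in ShPkm1 (median 1.62), 3 higher and 6 lower in ShPkm2 (median -1.01, or -1.11 with fold bounds used for genes at the floor), and 1 higher and 8 lower in the direct comparison (median -2.10). Fstl3, the closest relative of follistatin, measured 31.8 and 32.4 TMM CPM in shScr, 101 and 96.7 in ShPkm1, and 11.1 and 9.06 in ShPkm2. It was lower in ShPkm2 than in shScr (-1.67, adjusted p = 5.42e-08) and than in ShPkm1 (-3.29, adjusted p = 1.40e-10), so both follistatin-type activin binders were low in those libraries. Grem1, a Bmp antagonist, rose by 2.42 in ShPkm1 and 3.20 in ShPkm2, and Twsg1, a Bmp-binding modulator, by 0.88 and 1.10. Chrd, the Bmp antagonist chordin, was lower by -1.18 and -4.27. Bgn, a matrix proteoglycan that binds Tgf-beta, rose by 2.21 in ShPkm1 and was lower in ShPkm2 than in shScr (-1.01) and than in ShPkm1 (-3.21). The collagen markers Col1a1 and Col1a2 were highest in ShPkm1 too, at 1803 to 2585 TPM.

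Of 14 tested receptors and co-receptors, 9 were higher and 3 lower in ShPkm1 (median 0.52), 6 higher and 3 lower in ShPkm2 (median 0.11), and 1 higher and 7 lower in the direct comparison (median -0.26). Tgfbr3, the co-receptor betaglycan, rose by 1.79 in ShPkm1 and was lower in ShPkm2 than in ShPkm1 by -1.65. Bmpr2, the type II Bmp receptor, rose by 1.25 and 0.79 in ShPkm1 and ShPkm2. Tgfbr1, the type I Tgf-beta receptor, rose by 0.57 in ShPkm1 and 1.22 in ShPkm2. The Bmp co-receptors Rgma (-0.59 and -1.99) and Rgmb (-1.59 and -1.56) were lower in both hairpin groups. For Rgma in ShPkm1, limma on TPM lost the call, at -0.16 (adjusted p = 0.273) and -0.17 (adjusted p = 0.282).

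Of 15 Smads and regulators, 8 were higher and 0 lower in ShPkm1 (median 0.30), 10 higher and 2 lower in ShPkm2 (median 0.40), and 1 higher and 3 lower in the direct comparison (median -0.05). Smad6, the inhibitory Smad of the Bmp branch, rose by 1.40 and 1.15 in ShPkm1 and ShPkm2, in the same groups in which Smad7 rose. Smad5, a Bmp transducer, rose by 1.01 and 0.87. Smad3, the Tgf-beta and activin transducer, measured 118 and 120.0 TMM CPM in shScr, 109.7 and 110.3 in ShPkm1, and 62.0 and 55.6 in ShPkm2, and was lower in ShPkm2 (-1.02, adjusted p = 9.19e-07). Pmepa1, a feedback inhibitor of Tgf-beta signalling, was also lower there (-1.21).

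Of 9 tested Tgf-beta target genes, 6 were higher and 2 lower in ShPkm1 (median 0.84), 4 higher and 4 lower in ShPkm2 (median -0.12), and 0 higher and 6 lower in the direct comparison (median -1.14). Tgfbi, a matrix protein, rose by 2.10 and 0.88 in ShPkm1 and ShPkm2. The Tgfbi call in ShPkm2 was lost without shScr replicate 2 (0.56), without ShPkm2 replicate 2 (0.85) and in DESeq2 (0.88, adjusted p = 0.0615). Acta2, a smooth-muscle actin also expressed by differentiating myoblasts, was lower by -1.09 and -2.24. Ccn2, a matricellular target, was lower by -0.25 in ShPkm1 (adjusted p = 0.0324), a call that was lost under most alternatives and whose sign turned in limma on TPM. Tagln, a smooth-muscle cytoskeletal gene, and Junb, an early response gene, were lower in ShPkm2 than in ShPkm1 by -2.36 and -1.64.

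Of 9 tested Bmp target genes, 6 were higher and 0 lower in ShPkm1 (median 1.19), 7 higher and 1 lower in ShPkm2 (median 1.44), and 5 higher and 3 lower in the direct comparison (median 0.66). The Id genes encode proteins that bind and block helix-loop-helix factors such as Myod1. Id2 measured 3.23 and 3.79 TMM CPM in shScr, 13.4 and 13.2 in ShPkm1, and 19.4 and 22.8 in ShPkm2, with log2 fold changes of 1.91 and 2.58. Id3 rose by 1.19 in ShPkm1 and 2.38 in ShPkm2. Id1 and Id3 were higher in ShPkm2 than in ShPkm1 by 1.23 and 1.20. Bmp4 RNA in ShPkm2 was 5.04-fold lower than in ShPkm1 and 2.04-fold higher than in shScr. Its relation to these target genes was not tested. Atoh8, another helix-loop-helix gene, rose by 1.72 in ShPkm1 and 1.40 in ShPkm2. Hey1, a Notch and Bmp target, was lower in ShPkm2 than in shScr (-1.03) and than in ShPkm1 (-1), and Msx1, a homeobox gene, was lower in ShPkm2 than in ShPkm1 (-0.73).

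**Figure D5:**
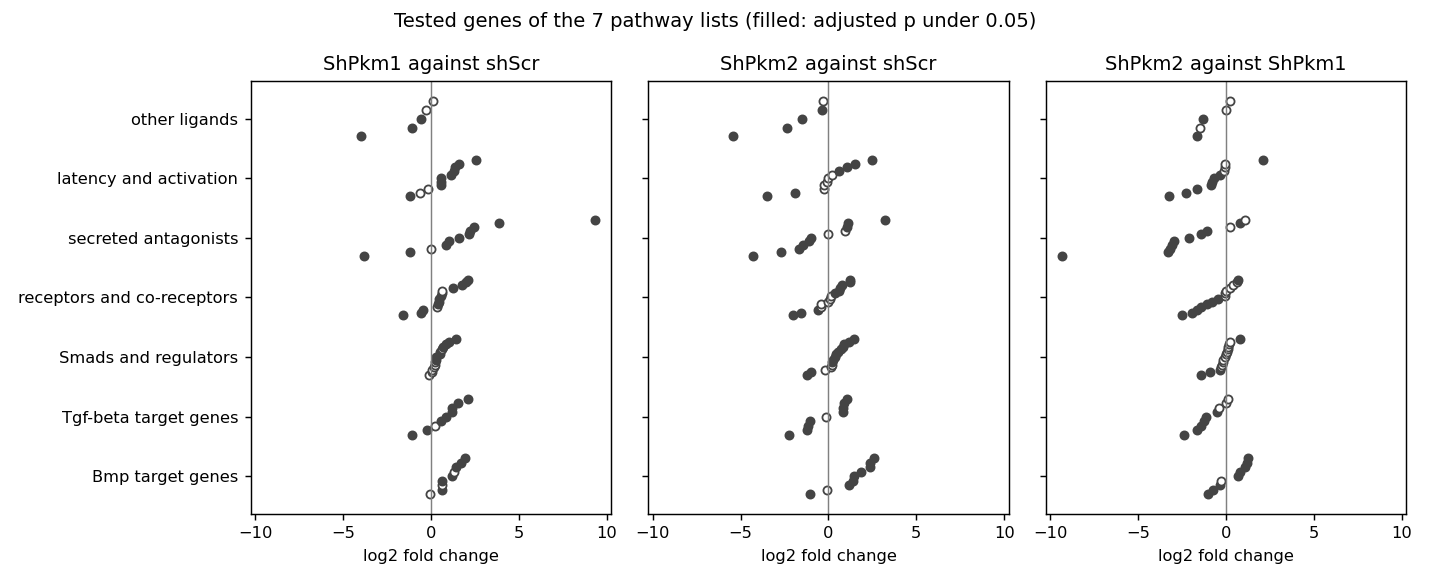
Each point is the log2 fold change (horizontal axis) of 1 tested gene of a pathway list (rows), filled where the adjusted p is under 0.05, in 3 panels for the 3 comparisons. Genes at or under 3 counts in both libraries of a group (3, 3 and 4 genes in the panels from left to right) are drawn at their fitted value, which is no bound. In the right panel 35 genes lie called below 0 and 8 above.

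For each of the 9 tested genes, the other gene with the most similar profile was found among 10718 candidates, as the smallest root mean square difference of centred log2 CPM over the 6 libraries. The closest match was that of Fstl1 with Adcy7, at 0.0421, and the loosest that of Fst with Casq1, at 0.289. Casq1, which encodes the calcium-binding calsequestrin of muscle, had a log2 fold change of -0.47 in ShPkm1 and -6.74 in ShPkm2. Bmp4 was nearest to Krt14 (0.129), whose log2 fold changes were 3.40 and 1.13. Tgfb1 was nearest to Anapc2 (0.0459), Tgfb2 to Fam20a (0.117), Tgfb3 to Stk17b (0.102), Inhba to Slc35b3 (0.0559), Acvr2b to Ccsap (0.0557) and Smad7 to Jak2 (0.0777). These distances describe the 6 libraries only.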

How the data were processed

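RNA of 6 libraries, 3 groups of 2, was measured in C2C12 cells. Per the file headers, the deposited table holds FPKM, TPM and an estimated count per library for each of 57920 RefSeq transcripts. The authors' FPKM and TPM values are relative to transcript length and to the library's total. The submitters' processing notes name HISAT, StringTie, Bowtie, RSEM, DESeq2 and the mouse build mm10, with no role or order. Whether counting used strand is not given in the sources used here. The deposited estimated counts are partly fractional (48.0% to 50.7% whole). Of the table's columns, 9 with group means were not used.

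Estimated counts and TPM were summed per NCBI gene (17445 of 17558 matched a symbol; the other 113 held at most 0.148% of a library). Counts were rounded and tested with edgeR 4.0.16 in R 4.3.3: filterByExpr (minimum count 10, minimum total 15), TMM, 1 coefficient per group over all 6 libraries (3 residual degrees of freedom), and the two-sided quasi-likelihood F-test. P-values were adjusted by Benjamini-Hochberg over 12643 genes or, in a separate fit, 33433 transcripts. A call is an adjusted p under 0.05. Errors after ± are standard errors of log2 fold changes unless SD is written. Counts up to 3 were taken as the floor, which covers counting error only. Each library was kept as a replicate. Libraries of a group differed by more than sampling noise (chi-square per degree of freedom 32.3 in shScr, 6.16 in ShPkm1 and 6.93 in ShPkm2). This does not show that they came from separate cultures. The fit shares its spread over all groups, so standard errors against shScr, the most variable group, may be too small. The genes and lists were chosen with earlier results of these data known. Named pathway genes are, per list and comparison, up to 2 called genes with the largest rise and up to 2 with the largest fall at a mean of at least 50 counts. One gene that this rule names is not reported here. The marker genes Ptprc and Adgre1 and the pathway genes Acvr1c and Cdkn2b were not analysed here. Alternatives were other scalings, other filters on low counts, DESeq2 1.42.0, limma 3.58.1 on log2(TPM + 1) and log2(TPM + 0.1) for genes with a mean TPM of at least 0.5, the replicate number as a block, fits of only the groups compared, leaving out each library, and FPKM in place of TPM for ratios.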

Additional observations from a re-analysis of the deposited data

How the results depend on the processing

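The 10 genes gave 5, 8 and 6 calls in ShPkm1 against shScr, ShPkm2 against shScr and ShPkm2 against ShPkm1, and over all alternatives run 5 to 7, 7 to 9 and 5 to 7. Counts of all called genes stayed within 1.5 times of those in the main fit, above or below. Replicate numbers did not pair the libraries (correlations of -0.026, 0.042 and 0.053), and with the replicate number as a block the calls were again 5, 8 and 6, with 7922, 8566 and 6682 genes called overall. With library totals in place of TMM, the share of calls that were higher went from 50.3% to 65.8%, from 49.8% to 69.3% and from 48.4% to 61.3%.

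Of 405 single values of the 10 genes under alternatives, 375 kept direction and side of the threshold, 13 gained the call, 7 lost it and 10 changed sign. Sign changes all concerned small values that were not called. In ShPkm1 against shScr these were Tgfb3 without shScr replicate 2 (-0.07), Fst with library totals (0.12) and with limma on TPM (0.32 with either pseudocount), and Acvr2b with limma (0.09 and 0.25). In ShPkm2 against shScr it was Tgfb1 without shScr replicate 1 (-0.08, and up to 0.19 without shScr replicate 2). In the direct comparison it was Inhba, with library totals (0), without ShPkm1 replicate 1 (0.05) and without ShPkm2 replicate 2 (0.03, and down to -0.32 without ShPkm2 replicate 1). Tgfb1 in the direct comparison gained the call when only the compared groups were fitted (-0.22, adjusted p = 0.0281). It also did so without shScr replicate 1 (-0.22) and without shScr replicate 2 (-0.21). Tgfb3 in ShPkm1 was called by limma on TPM (0.42). Ccn2 in ShPkm1 turned to 0.13 and 0.14 in limma. Among Fst transcripts in ShPkm1, NM_001301373.1 turned to 0.03 with library totals. NM_001301375.1 turned to 0.06 with library totals, 0.09 without shScr replicate 2 and 0.04 without ShPkm1 replicate 2 (lowest -0.28, without shScr replicate 1). NM_008046.3 turned to -0.06 without ShPkm1 replicate 1 (highest 0.91, without ShPkm1 replicate 2). The cause was not tested. The fall of Fst in ShPkm2 lay between -5.69 and -4.49 over all alternatives and the rise of Bmp4 in ShPkm1 between 3.10 and 3.74. Depth limits Mstn and, at a few TMM CPM, Acvr2b and Smad7. With 2 libraries a group, leaving one out assumes that the lone library varies like the others.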
